A study of Mus musculus with 8 samples.

Results

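The genes described here encode voltage-gated channels and potassium channels. They were taken by symbol from the gene list of the count tables, as every Kcn gene with a numbered symbol, the 4 Hcn genes, every Scn gene ending in a or b and every Cacna gene of a pore subunit. The rule found 120 of 31053 genes, and no measured value entered it. RNA was counted in single cells from the ipsilateral dentate gyri of male Nestin-GFP mice, 8 weeks of age, taken 15 days after surgery, which was a craniotomy alone (sham, called Control) or a controlled cortical impact on one side (TBI). In these mice control elements of the nestin gene drive GFP, and sorting for GFP set which cells entered the libraries. The animals of a condition were pooled, so each condition was 1 library without replicates, although the labels list 4 animals per condition and the study's methods give other numbers. A difference between Control and TBI is therefore a difference between 2 libraries, no test was made, and every interval given covers counting error only.

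Potassium channels set the resting potential and end the action potential, sodium channels start it, calcium channels admit calcium on depolarization, and HCN channels carry an inward current on hyperpolarization. Astrocytes take up potassium through inward rectifiers and leak channels, and newborn granule neurons acquire their excitability as they mature. In vessel walls, ATP-sensitive and calcium-activated potassium channels help set the tone of the vessel.

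The libraries held 3086 Control and 5081 TBI barcodes. After a filter on RNA content, 7337 cells fell into 17 populations named from marker genes and 744 cells stayed unnamed. The libraries shared 3 barcodes. The median count per cell was 6928 UMIs (unique molecular identifiers, tags that mark single RNA molecules) in Control and 5663 in TBI. Levels are UMIs of a gene per 1000000 UMIs of its population in 1 library, leaving out the nuclear RNA Malat1 (CPM). Reads came from the 3′ ends of transcripts and are not scaled by length, so levels are compared for 1 gene between populations and not between genes. Channel genes were kept out of the genes that defined the clusters. The most mature cluster of neuroblasts had only 2 of 7 markers of immature granule neurons detected and is called Camk2b-high neuroblasts.

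Channel genes took 0.131% of all UMIs. Of the 120 genes, 6 had no UMI (Kcnh6, Kcnj1, Kcnk16, Kcnk18, Scn10a and Scn4a), 37 had fewer than 50 UMIs and 77 had 50 or more. Only 2 of the 10 silent Kv subunits, which form channels together with other Kv subunits, were among the 77. A level of 10 CPM in both libraries was reached by 69 genes in at least 1 population. Reln neurons had 38 such genes (31.7% of the 120), OPC 33 (27.5%), Camk2b-high neuroblasts 30 (25%) and endothelial cells 4 (3.33%). Over all genes that share was 25.9% in Reln neurons, 26.9% in OPC, 27.0% in Camk2b-high neuroblasts and 26.3% in endothelial cells.

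Of the 77 genes, 26 had their highest level over both libraries in Reln neurons, 12 in OPC, 6 in astrocytes, 6 in smooth muscle, 5 in pericytes, 5 in oligodendrocytes and 5 in Camk2b-high neuroblasts. For 53 of them both libraries gave the same population. The same counts over all genes are not given here, so these are not a trait of channel genes. In Control 1 UMI was worth 4.72 CPM in Reln neurons and 4.82 in OPC, against 0.187 in oligodendrocytes. A gene with few UMIs can thus be highest in a small population from few counts.

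**Figure D1:**
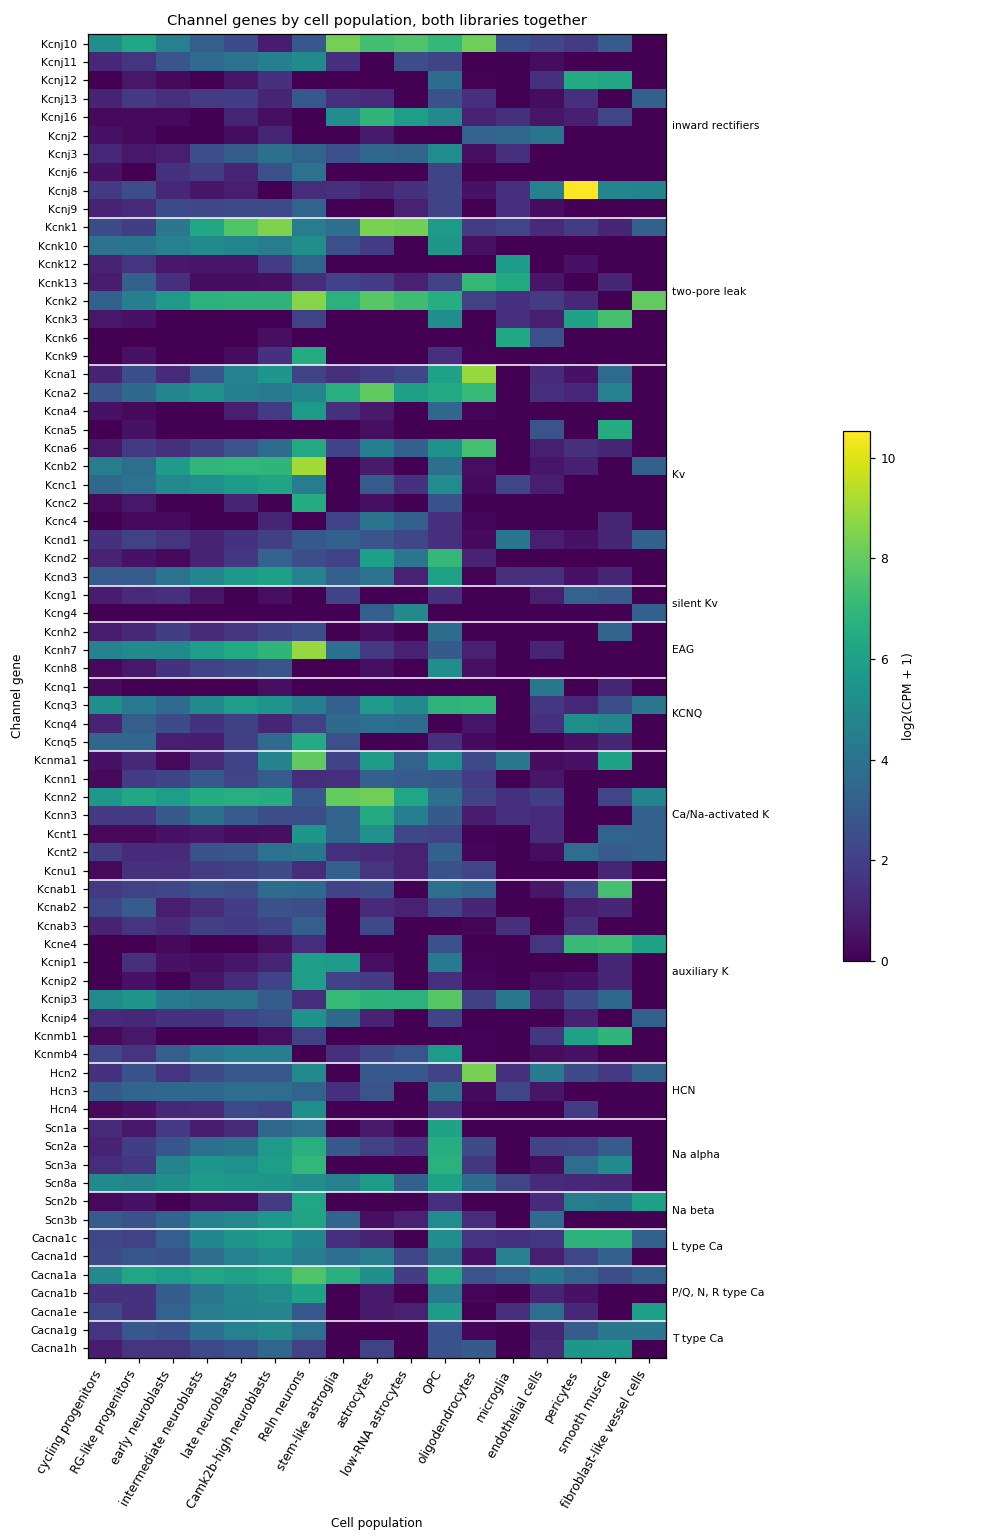
Level of 72 channel genes with 50 or more UMIs (rows, by family) in 17 cell populations (columns), as log2(CPM + 1) over both libraries together. Kcnj8 stands out in pericytes, Kcna1 and Hcn2 in oligodendrocytes, and Kcnb2 and Kcnh7 in Reln neurons.

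Channel genes were mostly higher in Camk2b-high than in early neuroblasts. A gene was compared where both populations together held at least 50 UMIs, and was called where its levels differed 2-fold or more in the same direction in each library. Of the 120 genes 32 could be compared, and 23 were higher, 2 lower and 7 neither. Over all 9755 genes compared, 6.88% were higher and 5.54% lower. The median log2 ratio was 1.78 over the 32 channel genes and -0.00 over all genes. A gene near 0 in one population could enter only through the other, so the 32 do not stand for the 120. The same holds for each comparison of 2 populations given below. The summed markers of immature granule neurons were at 120.3 CPM (Control) and 137 CPM (TBI) in early and at 501 and 343 CPM in Camk2b-high neuroblasts. Camk2b is among these markers and was used to name the population, so part of this difference was set by the naming. Of 7 immediate early genes compared, 5 were higher there. The part of either in the channel counts was not tested.

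Kcnk1 encodes the two-pore leak channel TWIK1 and lies on chromosome 8 (125995170 to 126030685, + strand, GRCm38). In Control it was at 3.76 CPM in RG-like progenitors, 13.6 in early, 62.3 in intermediate, 190.6 in late and 379 in Camk2b-high neuroblasts. In TBI Kcnk1 was at 2.21, 19.3, 88.7, 208 and 347 CPM in the same order. In both libraries each neuroblast stage lay above the one before it. Camk2b-high neuroblasts had 27.9 times the early level of Kcnk1 in Control (95% interval 18.8 to 43.2) and 18.0 times in TBI (13.6 to 24.2).

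The share of cells with Kcnk1 gave the same order. When each cell was thinned to 2000 UMIs, 1.75% of early and 53.5% of Camk2b-high neuroblasts had a UMI of Kcnk1. Among oligodendrocytes, which had little of it, the share with Kcnk1 was 0.427%. Before thinning, the share in Camk2b-high neuroblasts was 94.1%. The median counts per cell before thinning were 9492.5 and 7170.0 UMIs in Camk2b-high neuroblasts and 10801.5 and 8636 UMIs in oligodendrocytes, for Control and TBI.

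Kcnk2, the stretch-sensitive leak channel TREK1, was high from an earlier stage. In Control it was at 22.1 CPM in RG-like progenitors, 50.7 in early, 119 in intermediate, 107 in late and 113 in Camk2b-high neuroblasts. In TBI Kcnk2 was at 22.4, 48.2, 95.5, 118 and 115 CPM. From the intermediate stage on, its levels stayed within 95.5 to 119 CPM.

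Kcnq3, a subunit of the M current that restrains repetitive firing, was highest among these stages in late neuroblasts, at 68.3 and 50.5 CPM, against 9.42 and 13.4 in early and 51.4 and 35.3 in Camk2b-high neuroblasts. Kcnma1, the pore of the large-conductance calcium-activated (BK) channel, had 1 UMI in early neuroblasts of Control and 0 in those of TBI, against 31 and 37 UMIs in Camk2b-high neuroblasts. The ratio of Kcnma1 was 50.8 in Control (interval 8.46 to 2069), and in TBI it was at least 22.5-fold higher, counting 3 UMIs for the 0.

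**Figure D2:**
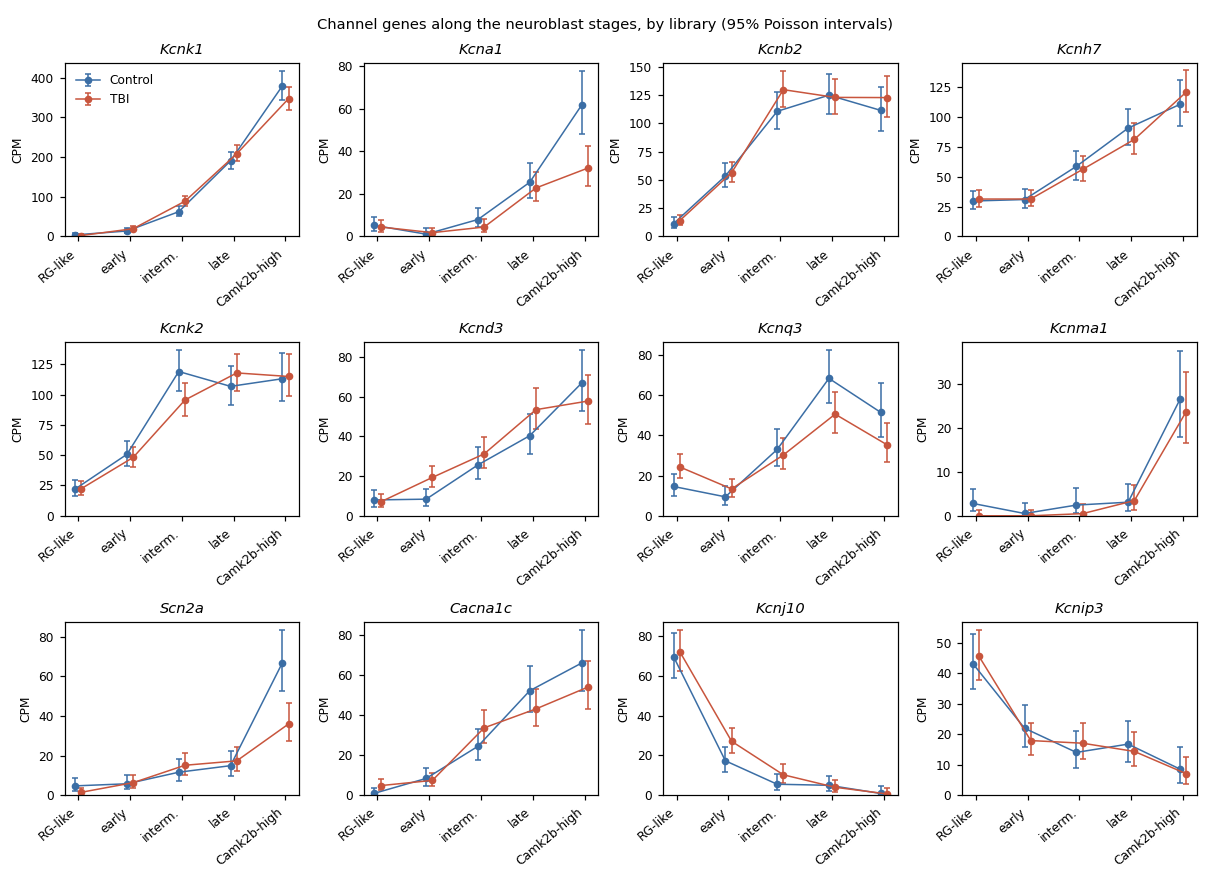
Levels of 12 channel genes (CPM, linear axes from 0) in RG-like progenitors and 4 neuroblast stages, Control in blue and TBI in red, with 95% Poisson intervals. Kcnk1 lies higher at each neuroblast stage up to 379 and 347 CPM, Kcna1 and Kcnma1 are near 0 in early neuroblasts, and Kcnj10 and Kcnip3 lie lower at later stages.

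The Kv genes took several courses. Kcnb2, a delayed rectifier of the Kv2 family, was at 11.3 and 13.97 CPM in RG-like progenitors, 53.4 and 56.2 in early, 110.5 and 129.7 in intermediate and 111 and 123 in Camk2b-high neuroblasts.

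Kcnd3, an A-type channel that delays firing, was at 8.37 and 19.3 CPM in early and 66.8 and 57.8 in Camk2b-high neuroblasts. Kcna1, a low-threshold channel of axons, was at 1.05 and 1.76 CPM in early neuroblasts, from 2 and 5 UMIs, and at 61.7 and 32.1 CPM in Camk2b-high neuroblasts. Kcnh7, of the ERG family, was at 30.9 and 31.3 CPM in early and 110.5 and 121 in Camk2b-high neuroblasts. Among auxiliary subunits Kcnab1 and Kcnmb4 were higher and Kcnip3 lower. Kcnip3, whose product binds Kv4 channels and also DNA, was at 0.390 of its early level in Control (interval 0.174 to 0.790) and 0.394 in TBI (0.185 to 0.766).

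Sodium and calcium channel genes differed in the stage of their first step. Scn3a, a sodium channel of developing neurons, was at 1.88 and 2.57 CPM in RG-like progenitors and already at 28.8 and 23.2 CPM in early neuroblasts. Scn2a, the sodium channel of young axon initial segments, was at 5.75 and 6.33 CPM in early and 66.8 and 36.0 in Camk2b-high neuroblasts. Scn8a, known from mature initial segments and nodes, had ratios of 1.84 and 0.998 and was not called. Scn1a reached 13.7 and 8.35 CPM in Camk2b-high neuroblasts and had too few UMIs for the comparison.

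The L type calcium channel gene Cacna1c was 7.88 and 7.31 times as high in Camk2b-high as in early neuroblasts. The other L type gene compared, Cacna1d, was 4.58 and 10.6 times as high. Cacna1b (N type), Cacna1e (R type) and Cacna1g (T type) were also higher. Cacna1a, the P/Q type pore, was at 41.8 and 69.95 CPM in early and 78.8 and 82.8 in Camk2b-high neuroblasts and was not called.

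The inward rectifiers went in opposite directions. Kcnj10, the glial rectifier Kir4.1, was at 69.5 and 72.1 CPM in RG-like progenitors, 17.3 and 27.1 in early, 5.49 and 10.2 in intermediate, 4.97 and 3.96 in late and 0.857 and 0.642 in Camk2b-high neuroblasts, the last from 1 UMI in each library. Kcnj11, the pore of the neuronal ATP-sensitive channel, was at 5.75 and 5.98 CPM in early and 30.8 and 15.4 in Camk2b-high neuroblasts. Its sulfonylurea receptor gene Abcc8 was at 0.523 and 3.52 CPM in early and 33.4 and 23.8 in Camk2b-high neuroblasts. Pore and receptor genes of this channel were thus both higher.

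The step from RG-like progenitors to early neuroblasts held fewer calls. Of 25 channel genes compared, 6 were higher and 3 lower, against 3.35% and 8.3% over all genes compared. Higher were Cacna1e, Kcna2, Kcnb2, Kcnk1, Kcnk2 and Scn3a, and Kcnj10 and Kcnq5 were among the lower.

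Genes that work with the channels were followed as 3 lists. Of 14 genes for partners of potassium and sodium channels, 7 could be compared between early and Camk2b-high neuroblasts, with 5 higher and 0 lower. Of 8 calcium channel beta and alpha2delta subunits, 6 could be compared, with 2 higher and 0 lower. Of 10 genes of the sodium-potassium pump and chloride handling, 9 could be compared, with 1 higher and 2 lower. Over all genes compared between these populations, 6.88% were higher and 5.54% lower.

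Reln neurons had a different channel set. They numbered 27 Control and 76 TBI cells, and 6 of the 8 genes of their marker list were seen, with a sum of 15460 and 16781 CPM. Against Camk2b-high neuroblasts 35 channel genes could be compared, 11 were higher and 7 lower, with 9.54% and 8.92% over all genes compared. Kcnb2 was at 529 and 531 CPM in Reln neurons, 4.75 and 4.33 times its level in Camk2b-high neuroblasts. Kcnh7 was at 458 and 492 CPM, 4.15 and 4.08 times. Kcnma1 was at 246 and 244 CPM, 9.25 and 10.3 times, and Kcnk2 at 359 and 404 CPM. These 4 genes were thus high in both libraries and close between them.

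Other genes high in Reln neurons were near 0 in neuroblasts. Kcnc2, a fast delayed rectifier of the Kv3 family, had 29 and 27 UMIs in Reln neurons and 0 in Camk2b-high neuroblasts of either library, at least 53.3-fold higher in Control and 34.1-fold in TBI. The acid-sensitive leak channel gene Kcnk9 was at 94.5 and 85.3 CPM against 2.57 and 1.28. Among the 7 lower genes was Kcnk1, at 23.6 and 19.5 CPM, 0.0622 and 0.0561 of its level in Camk2b-high neuroblasts. Hcn4, known as a pacemaker subunit, was highest here with 28.3 and 41.4 CPM. The alpha2delta genes Cacna2d1 (595 and 689.6 CPM) and Cacna2d2 (1110.0 and 1323 CPM) were high in the same cells.

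Astroglia carried genes for potassium uptake and leak. In astrocytes Kcnk1 was at 388 and 274 CPM and the leak gene Kcnk2 at 218 and 217 CPM. Kcnn2, a small-conductance calcium-activated channel, was at 321 and 269 CPM, and the Kv gene Kcna2 at 261 and 225 CPM. Kcnj10 was at 166 and 156 CPM and Kcnj16, which encodes its partner Kir5.1, at 114 and 119.7 CPM. Kcnj16 had the narrower range of this pair, with 2.48 CPM or less in progenitors, neuroblasts, Reln neurons, oligodendrocytes and microglia. Low-RNA astrocytes, a cluster of 556 cells with a median of 1691.5 UMIs, are counted apart. In them Kcnn2 was at 78.4 and 71.1 CPM, Kcna2 at 64.8 and 58.9 and Kcnj16 at 59.7 and 58.9. Kcnk1 was at 332 and 286 CPM there, Kcnk2 at 148 and 160 and Kcnj10 at 189 and 211.

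Between stem-like astroglia and astrocytes 18 channel genes could be compared. In astrocytes 8 were higher and 2 lower, against 6.96% and 5.2% over all genes compared. Higher were Kcna2, Kcnd2, Kcnj16, Kcnk1, Kcnma1, Kcnn3, Kcnq3 and Kcnt1. Of these, Kcnd2, Kcnj16, Kcnma1 and Kcnn3 were at 0 CPM in TBI stem-like astroglia, so their TBI ratios are bounds. In Control stem-like astroglia they were at 4.56, 47.9, 4.56 and 13.7 CPM. Kcnq3 (6.84 and 11.9 CPM) and Kcnt1 (9.12 and 11.9 CPM) also rest on few UMIs there. Kcnk1 had 5 and 3 UMIs in stem-like astroglia (11.4 and 17.9 CPM), and astrocytes had 34.0 times that level in Control (interval 14.5 to 105) and 15.3 times in TBI (5.20 to 74.7).

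Cacna1a was among the genes lower in astrocytes. It was at 93.5 and 113 CPM in stem-like astroglia and 37.0 and 36.7 in astrocytes. Kcnj10 was at 324 and 316 CPM in stem-like astroglia, with ratios of 0.514 and 0.495, and missed the 2-fold limit in Control. Of stem-like astroglia thinned to 2000 UMIs, 38.9% had a UMI of Kcnj10. Stem-like astroglia were few in TBI, with 42 cells, where 3 UMIs were worth 17.9 CPM. The astrocyte markers summed to 18889 and 16915 CPM in stem-like astroglia and 26048 and 25213 CPM in astrocytes.

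Oligodendrocytes held 8 channel genes at 10 CPM or more in both libraries, 6.67% of the 120, against 24.4% of all genes. Kcna1 was at 458 and 488 CPM, its relative Kcna6 at 161 and 169.9 CPM and Kcna2 at 131 and 134 CPM. Kcnj10 was at 295 and 298 CPM and the leak channel gene Kcnk13, for THIK1, at 134 and 122 CPM. The KCNQ gene Kcnq3 was at 120.3 and 123 CPM. The HCN subunit gene Hcn2 was at 269 and 368 CPM. Outside oligodendrocytes Hcn2 was highest in Reln neurons, at 28.3 and 31.7 CPM, and OPC had 1 UMI of it in each library.

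Against OPC 23 channel genes could be compared, with 4 higher and 12 lower in oligodendrocytes, and 6.2% and 18.1% over all genes compared. The median log2 ratio was -2.43 over the 21 channel genes whose direction a count of 0 did not leave unknown, and -0.45 over all such genes. The 4 higher were Hcn2, Kcna1, Kcna6 and Kcnk13. Hcn2 had ratios of 55.8 (interval 10.0 to 2207) and 135 (24.1 to 5318). Kcnk13 had 0 and 2 UMIs in OPC, and was at least 9.29-fold higher in Control and at 22.3 times the OPC level in TBI (6.17 to 185).

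OPC had sodium channel genes that oligodendrocytes nearly lacked. Scn3a was at 125 and 93.0 CPM in OPC and 2.99 and 1.72 in oligodendrocytes. Scn2a was at 111 and 84.8 CPM in OPC and 3.74 and 5.03 in oligodendrocytes. The A-type gene Kcnd2 was at 81.9 and 156 CPM in OPC and 0.936 and 1.10 in oligodendrocytes. There were only 27 Control and 56 TBI OPC, and the summed oligodendrocyte markers were at 24668 CPM in those of Control and 5601 CPM in those of TBI. Kcna1 (120.5 and 32.8 CPM in OPC) and Kcnj10 (183 and 98.5 CPM) were higher in the same library, and the part of these markers was not tested.

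Microglia, 21 in Control and 62 in TBI, had few channel genes. The leak channel gene Kcnk13 was at 88.1 and 81.6 CPM and Kcnk6 at 88.1 and 74.2 CPM. Kcnk12, of the THIK family, was at 69.2 and 47.0 CPM. Kcnk6 was at 5.08 CPM or less and Kcnk12 at 9.75 CPM or less in every other population.

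**Figure D3:**
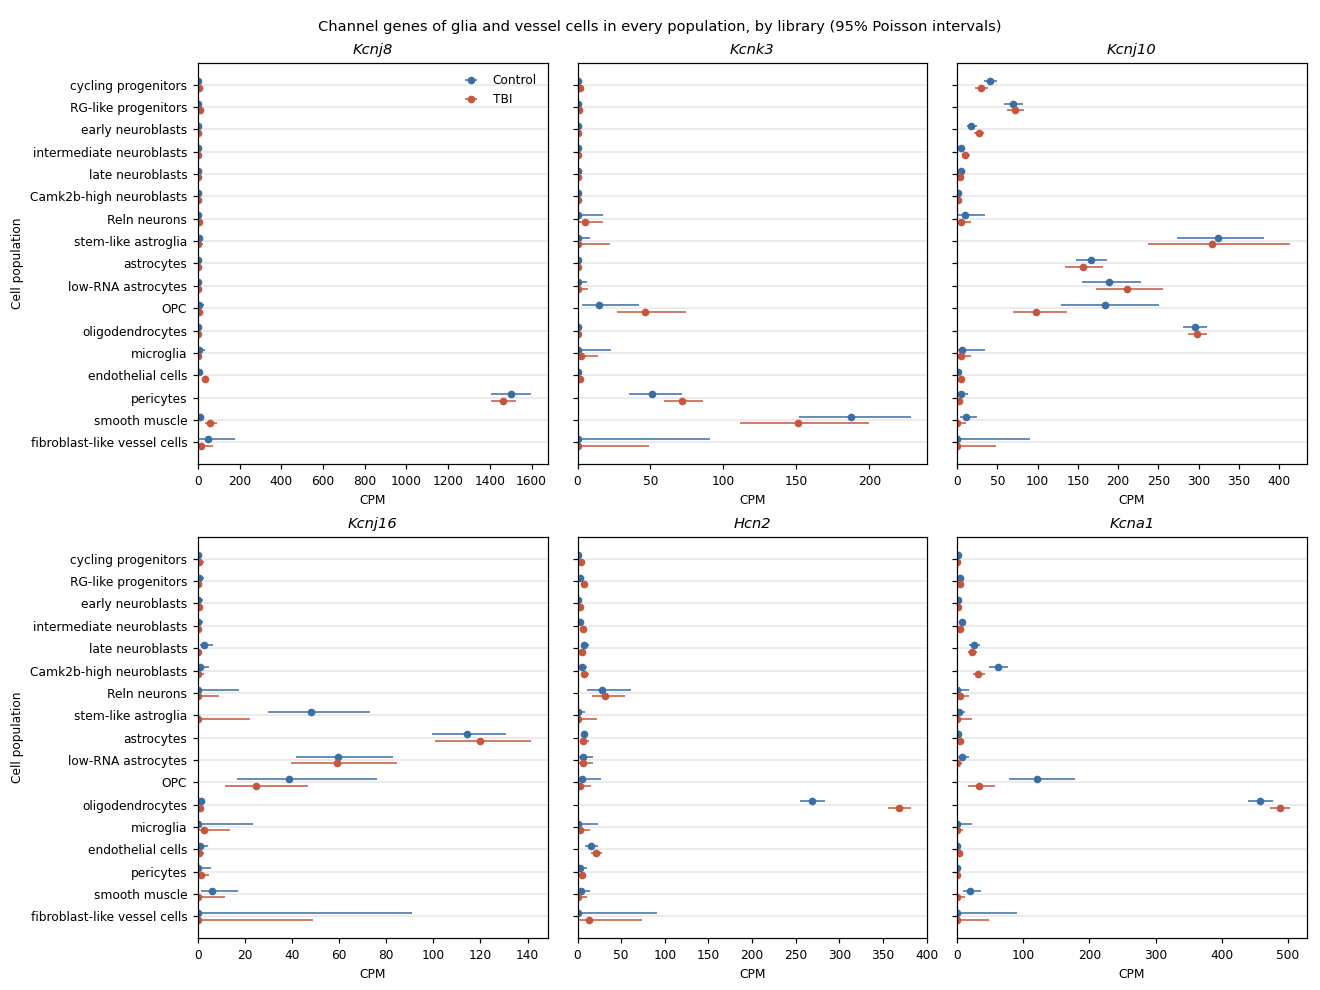
Levels of 6 channel genes (CPM, linear axes from 0) in 17 populations, Control in blue and TBI in red, with 95% Poisson intervals. Kcnj8 reaches 1500.4 and 1464 CPM in pericytes, Kcnk3 is highest in smooth muscle, Kcnj16 in astrocytes, Hcn2 and Kcna1 in oligodendrocytes, and Kcnj10 spans astroglia, OPC and oligodendrocytes.

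In mural cells Kcnj8 marked pericytes. Kcnj8 encodes Kir6.1, the pore of the vascular ATP-sensitive potassium channel, and lies on chromosome 6 (142564837 to 142571614, - strand). It had 968 Control and 2365 TBI UMIs in pericytes, 1500.4 and 1464 CPM. Its sulfonylurea receptor gene Abcc9 was at 1333 and 1185 CPM there. After thinning to 2000 UMIs, 83.2% of pericytes had a UMI of Kcnj8 (interval 80.2 to 85.9%), against 0 of 1405 oligodendrocytes. With 3 cells in place of that 0, the share of oligodendrocytes would be 0.214%, which is not a Clopper-Pearson limit. The share of pericytes was 91.4% before thinning.

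The start regions are shown for mural genes, here those highest in either pericytes or smooth muscle. These genes do not all share 1 population, as Kcnj8 was higher in pericytes and Kcna5 in smooth muscle. Of 11 genes highest in pericytes or smooth muscle, 7 had an entry among RefSeq promoters (GRCm38.p6, 250 bases before to 50 after a start), as did 86 of the 120 channel genes. The 5 mural genes with a single entry are printed 5′ to 3′ on the strand of the gene. Capitals mark the E-box letters CAGCTG, or CAGATG on either strand, where the reverse strand reads CATCTG.
Kcnj8, chr6:142571565-142571864, - strand: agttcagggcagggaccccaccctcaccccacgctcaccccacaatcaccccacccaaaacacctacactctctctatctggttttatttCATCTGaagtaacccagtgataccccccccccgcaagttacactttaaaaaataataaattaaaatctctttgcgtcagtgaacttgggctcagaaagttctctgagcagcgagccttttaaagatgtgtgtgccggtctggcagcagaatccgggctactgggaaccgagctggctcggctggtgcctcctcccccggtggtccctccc
Kcne4, chr1:78816661-78816960, + strand: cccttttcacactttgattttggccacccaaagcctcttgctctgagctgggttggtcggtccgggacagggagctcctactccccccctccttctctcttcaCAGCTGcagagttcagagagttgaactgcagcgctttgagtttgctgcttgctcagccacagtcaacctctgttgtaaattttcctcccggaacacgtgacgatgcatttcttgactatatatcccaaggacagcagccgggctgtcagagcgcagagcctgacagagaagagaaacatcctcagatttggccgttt
Kcnj12, chr11:61065554-61065853, + strand: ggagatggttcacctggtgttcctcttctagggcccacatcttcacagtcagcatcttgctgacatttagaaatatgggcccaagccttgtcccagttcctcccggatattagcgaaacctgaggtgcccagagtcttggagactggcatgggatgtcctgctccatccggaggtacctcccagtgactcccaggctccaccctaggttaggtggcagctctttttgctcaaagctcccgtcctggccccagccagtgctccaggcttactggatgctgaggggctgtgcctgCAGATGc
Kcnmb1, chr11:33962763-33963062, + strand: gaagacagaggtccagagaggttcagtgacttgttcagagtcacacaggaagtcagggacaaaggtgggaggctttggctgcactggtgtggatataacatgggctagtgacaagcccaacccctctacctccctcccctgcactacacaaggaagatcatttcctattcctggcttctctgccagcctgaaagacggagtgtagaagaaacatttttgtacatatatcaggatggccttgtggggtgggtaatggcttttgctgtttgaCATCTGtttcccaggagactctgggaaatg
Kcna5, chr6:126535506-126535805, - strand: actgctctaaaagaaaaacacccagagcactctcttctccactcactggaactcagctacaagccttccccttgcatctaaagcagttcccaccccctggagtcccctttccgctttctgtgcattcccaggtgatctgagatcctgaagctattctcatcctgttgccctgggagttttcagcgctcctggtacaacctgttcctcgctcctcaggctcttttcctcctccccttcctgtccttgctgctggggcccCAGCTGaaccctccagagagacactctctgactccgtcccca
Each of these held 1 match. By promoter, a match was found in 8 of 11 of mural genes, in 41.4% of the 116 of channel genes and in 30.6% of all 32851. By gene, at least 1 promoter held a match in 6 of the 7 mural genes, all but Kcnab1, and in 36 of the 86 channel genes. Of 13 genes with entries that were higher in Camk2b-high neuroblasts, 5 held a match. A match describes letters only and is no evidence of a factor at the site.

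Smooth muscle had little Kcnj8, at 7.72 and 58.5 CPM. Its cells came from a cluster of 91 cells with Kcnj8 at 0 and 16.2 CPM, and another of 36 cells at 58.7 and 191 CPM. Between pericytes and smooth muscle 14 channel genes could be compared, with 6 higher and 1 lower in smooth muscle, against 4.76% and 9.67% over all genes compared. The lower gene was Kcnj8, at 0.00514 and 0.0400 of its pericyte level. Kcna5, the delayed rectifier Kv1.5, had 48 and 28 UMIs in smooth muscle and 0 in pericytes, at least 19.9-fold and 46.4-fold higher. The Kv beta subunit gene Kcnab1 was at 201 and 123 CPM in smooth muscle against 6.20 and 2.48 in pericytes. Kcnk3, the leak channel TASK1, was at 187 and 151 CPM against 51.2 and 71.8. Kcnma1 was at 84.9 and 37.0 CPM in smooth muscle and had 0 and 1 UMIs in pericytes.

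Other genes were shared by both mural populations. The BK beta subunit gene Kcnmb1 was at 60.5 and 65.0 CPM in pericytes, with ratios of 2.01 and 1.66, so pericytes had this subunit gene and at most 1 UMI of the pore gene Kcnma1 in a library. The L type gene Cacna1c was at 122 and 108 CPM in pericytes and 86.8 and 129 in smooth muscle. Kcne4, a small subunit that modifies Kv channels, was at 102 and 149.8 CPM in pericytes and 189 and 98.6 in smooth muscle, so its order was opposite in the libraries. Within pericytes Kcne4 was at 170 and 217 CPM in a cluster of 309 cells, 85.4% of them from TBI. In the other pericyte cluster it was at 76.8 and 72.0 CPM, and the part of this mix was not tested.

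Endothelial cells had few channel genes. The inward rectifier gene Kcnj2 (18.7 and 14.8 CPM) and the KCNQ gene Kcnq1 (17.2 and 18.9 CPM) had 0 UMIs in pericytes. Of 13 channel genes compared, 9 were higher and 3 lower in pericytes than in endothelial cells, with 13.8% and 12.4% over all genes compared, and the 3 lower were Hcn2, Kcnj2 and Kcnq1. Among 30 fibroblast-like vessel cells Kcnk2 was at 271 and 251 CPM, where 1 UMI was worth 24.6 and 13.2 CPM.

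Between Control and TBI most channel genes lay within 2-fold. A gene was compared in a population where both libraries together held at least 50 UMIs, which gave 209 pairs of a gene and a population over 53 genes and 16 populations. Of these pairs 7 were 2-fold or more higher and 3 lower in TBI, 4.78% in all, against 1.29% of the pairs over all genes. The 7 include Kcnj8 in endothelial cells, whose ratio was 1.13 without cells called doublets. The pairs over all genes were not matched to the channel pairs in population or in UMIs, so the 2 shares are not like for like. The counting interval of 9 of the 10 pairs excluded 1, and values are given for 9 of the 10. The count rests on low counts, since 32 pairs passed with a minimum of 20 UMIs and 1 with a minimum of 100 UMIs. The number of pairs compared and the share over all genes at those minimums are not given. No pair passed in cycling progenitors (0 of 12, against 0.627% of all genes), RG-like progenitors (0 of 14, 0.983%), late neuroblasts (0 of 27, 0.614%), stem-like astroglia (0 of 7, 2.53%) or low-RNA astrocytes (0 of 7, 0.814%). In fibroblast-like vessel cells, where 8.97% of all genes passed, no channel gene had enough UMIs. In microglia 3.7% of all genes passed.

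**Figure D4:**
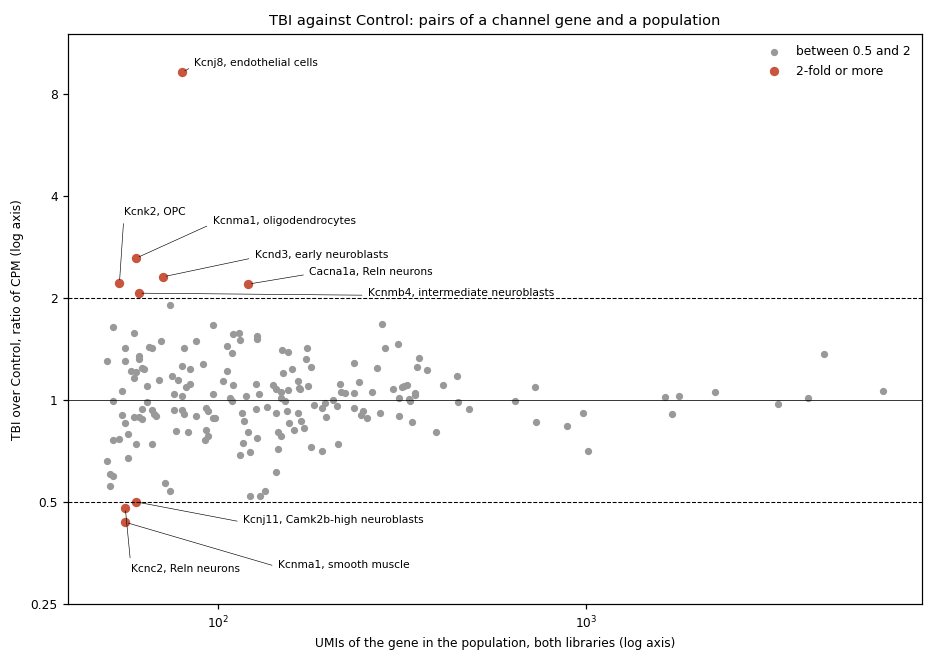
TBI over Control ratio of CPM (log axis) against the UMIs of the gene in the population over both libraries (log axis) for 190 pairs of a channel gene and a population, with dashed lines at 0.5 and 2. The 9 pairs past 2-fold that are plotted, in red and named, lie among the lower counts. Kcnj8 in endothelial cells stands apart at 9.27 with all cells, and its ratio was 1.13 without cells called doublets.

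In neuroblasts 3 pairs passed. Kcnd3 was at 8.37 CPM in Control and 19.3 in TBI early neuroblasts (16 and 55 UMIs, ratio 2.31, interval 1.30 to 4.32), where 0.443% of all genes passed. At the following stages Kcnd3 was at 25.6 and 31.2, 40.4 and 53.5, and 66.8 and 57.8 CPM, so the last stage had the opposite order. Kcnmb4 was at 10.4 and 21.4 CPM in intermediate neuroblasts (17 and 44 UMIs, ratio 2.07, interval 1.16 to 3.86), where 0.605% passed. Kcnj11 was at 30.8 and 15.4 CPM in Camk2b-high neuroblasts (36 and 24 UMIs, ratio 0.4998, interval 0.285 to 0.861), where 0.909% passed. Over 13 alternative ways of processing the Kcnj11 ratio lay between 0.486 and 0.542 and was past 2-fold in 7. Among the 7 are changes of the UMI minimum, of the fold limit and of the pericytes, which could not alter this ratio.

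Other channel genes were also lower in TBI Camk2b-high neuroblasts without reaching the limit. Kcna1 had a ratio of 0.521, Scn2a of 0.538 and Cacna1e of 0.567. The median log2 ratio of the 28 channel genes compared there was -0.30, and that of all genes -0.02. The markers of immature granule neurons (501 and 343 CPM) and of oligodendrocytes (831 and 292 CPM) were lower in the same library, and their part was not tested.

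In Reln neurons 2 of 12 channel genes passed, with 1.8% over all genes. Cacna1a was at 109 and 239 CPM (23 and 98 UMIs, ratio 2.20, interval 1.38 to 3.63). Kcnc2 was at 137 and 65.8 CPM (29 and 27 UMIs, ratio 0.480, interval 0.274 to 0.841). Cacna1a was also higher in TBI in RG-like progenitors (ratio 1.33) and early neuroblasts (ratio 1.67), with intervals above 1.

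In OPC Kcnk2 was at 53.0 and 118 CPM (11 and 43 UMIs, ratio 2.22, interval 1.13 to 4.77), where 9.09% of all genes passed and the oligodendrocyte markers differed as given above.

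In oligodendrocytes 1 of 15 channel genes passed, with 0.461% over all genes. It was Kcnma1, at 2.25 and 5.89 CPM (12 and 48 UMIs, ratio 2.62, interval 1.37 to 5.43). Hcn2, from far more UMIs, had a ratio of 1.37 (interval 1.28 to 1.46). The oligodendrocytes came from 5 clusters that took unlike shares of the libraries, and 1 cluster of 240 cells held 7.08% of the oligodendrocytes of Control and 22.04% of those of TBI. Within the clusters the ratio of Hcn2 was between 1.20 and 2.76, higher in TBI in 5 of 5. That of Kcnma1 was 0.603 in the cluster of 240 cells, from 2 and 7 UMIs, and between 2.11 and 3.96 in the other 4, from 2 to 12 UMIs in a library. After thinning, 33.5% of Control oligodendrocytes (interval 29.2 to 38.0%) and 42.4% of those of TBI (39.2 to 45.6%) had a UMI of Hcn2, against 0.856% of pericytes. Before thinning the shares were 68.9% and 73.5%, and 1.23% in pericytes. The cells and the 5 clusters come from the same 2 libraries, so neither are repeats of a condition. Kcna1 (ratio 1.06) and Kcnj10 (ratio 1.01) were close between the libraries.

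In astrocytes 0 of 18 channel genes passed, with 0.723% over all genes. Kcnk1 was at 388 and 274 CPM (702 and 314 UMIs, ratio 0.708, interval 0.618 to 0.810). The astrocytes came from a cluster of 517 cells, 49.7% of them from TBI, and another of 349 cells, 37.5% from TBI. Levels within these clusters are not given, and the part of this mix was not tested. Kcnj10 had a ratio of 0.941 (interval 0.778 to 1.14) and Kcnj16 of 1.05 (0.838 to 1.31).

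In endothelial cells Kcnj8 had 5 UMIs in Control and 75 in TBI (3.74 and 34.7 CPM, ratio 9.27, interval 3.80 to 29.4), where 0.962% of all genes passed. Of the 75 UMIs, 70 lay in 10 of the 572 TBI cells. Without cells called doublets there were 5 and 9 UMIs of Kcnj8, 3.92 and 4.42 CPM, and the ratio was 1.13. The summed pericyte markers in endothelial cells were at 531 and 869 CPM with all cells and at 542 and 392 CPM without doublets.

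In pericytes 0 of 8 channel genes passed, with 1.56% over all genes. Kcnj8 had a ratio of 0.976 (interval 0.905 to 1.05) and Kcne4 of 1.46 (1.11 to 1.95). Immediate early genes summed to 6577 CPM in Control and 15647 CPM in TBI pericytes, and 6 of 8 were 2-fold or more higher. A pericyte cluster of 309 cells, 85.4% of them from TBI, was highest in these genes, and Kcnj8 was at 1134 and 1548 CPM in it, against 1638 and 1367 CPM in the other pericyte cluster.

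In smooth muscle 1 of 9 channel genes passed, with 5.33% over all genes. It was Kcnma1, at 84.9 and 37.0 CPM (44 and 12 UMIs, ratio 0.435, interval 0.209 to 0.839). Kcne4 (ratio 0.521) and Kcnab1 (ratio 0.614) were also lower in TBI, with intervals below 1. Smooth muscle markers summed to 38599 and 27112 CPM in these cells and pericyte markers to 5472 and 13045 CPM, and their part was not tested.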

How the data were processed

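Gene expression was measured in single cells with droplet libraries, 1 per condition. The authors deposited raw counts of UMIs per gene and cell, made per the submitters' processing notes with Cell Ranger 3.0.2 on mm10 (GRCm38). The tables carry no condition label of their own, and each was assigned through the cell barcodes that the study lists for its conditions. There were 0 per-sample columns left unused.

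Cells with at least 200 genes and within 3 median absolute deviations of the median of log counts were kept. They were normalized, integrated and clustered in Seurat 5.3.0 (R 4.3.3) with 2000 variable genes, the channel genes left out. A second round took the progenitor, neuron and astroglial cells. Clusters were named from marker lists, of which at least 3 had to be detected in at least 10% of cells. The cluster planned as immature granule neurons missed this limit and was renamed, and its limit of 100 CPM of Camk2b was set after seeing the data. Choroid plexus cells (4) were left out. Doublets called by Scrublet in Scanpy 1.11.5 (38 in Control, 109 in TBI) were kept, and left out as an alternative.

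Counts were summed per population and library and divided by the total without Malat1. Intervals (95%) are exact Poisson for levels, Clopper-Pearson for shares and exact conditional binomial for ratios, with scipy 1.17.1. A count of 0 was set to 3 UMIs per library for a bound, which could show a difference only away from the 0. Shares of cells were taken after thinning each cell to 2000 UMIs, which 2697 of 3049 Control and 4295 of 5036 TBI cells reached. The steps were tested on simulated data with 200 changed genes among 31053. For Camk2b-high over early neuroblasts 84% of genes changed 2.5-fold and 100% of those changed 4-fold were recovered, and for TBI over Control in pericytes 92.5% and 100%. The changed genes of the neuroblast comparison had at least 100 UMIs, so recovery between 50 and 100 UMIs was not measured. The simulated counts held counting error only, without differences between cells, animals or libraries.

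The members and lists were chosen with earlier results of these data known. The text names members that were among the 4 highest of a population with at least 20 UMIs, among the 6 highest and 4 lowest ratios of the last to the early neuroblasts, past 2-fold between TBI and Control, or on a list of 26 well-known channels of these cell types. Other members named, among them Kcnk9, Hcn4, Kcnj2, Kcnq1, Kcnmb1 and Kcna5, were chosen after their values were seen. Some members count in the totals but are not reported here by name or in the figures. The counting of strand is not given in the sources used here, so a gene overlapped by another on the opposite strand may share its reads.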

Additional observations from a re-analysis of the deposited data

Results flagged for a closer look

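Kcnma1, the pore gene of the BK channel, went in opposite directions in 2 populations. It was higher in TBI oligodendrocytes (ratio to Control 2.62) and lower in TBI smooth muscle (ratio 0.435). With 1 library per condition the difference between these ratios was not tested. Both rest on few UMIs, 12 in Control oligodendrocytes and 12 in TBI smooth muscle.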

How the results depend on the processing

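Of the channel genes compared between Camk2b-high and early neuroblasts, 18 to 32 were higher under 11 alternatives, with 23 as reported, and the number lower was 1 without integration of the libraries. The 10 pairs past 2-fold between TBI and Control became 32 with at least 20 UMIs, 1 with at least 100 UMIs and 33 with a limit of 1.5-fold, and 8 to 11 under the other alternatives. For both sets of counts, the number compared and the share over all genes at each setting are not given. These counts therefore cannot be set against all genes. Shares of cells moved with the depth. With thinning to 1000 UMIs and without thinning they were 68.2% and 91.4% for Kcnj8 in pericytes, 25.6% and 72.0% for Hcn2 in oligodendrocytes, 32.1% and 94.1% for Kcnk1 in Camk2b-high neuroblasts, and 19.0% and 64.8% for Kcnj10 in stem-like astroglia. These shifts follow from the number of UMIs kept per cell. Of 130 alternative values of the ratios past 2-fold, 129 lay within the counting interval of the reported ratio. The exception was Kcnj8 in endothelial cells (1.13 without doublets). Some of these values could not move. A changed UMI minimum or fold limit leaves a ratio as it is. Leaving out the pericyte cluster highest in immediate early genes had no effect on them either, as no pair passed in pericytes. Over 13 alternatives each, the ratio stayed past 2-fold in 12 for Cacna1a, 12 for Kcnd3, 11 for Kcnc2 and 10 for Kcnmb4. It did so in all 13 for Kcnk2 and Kcnma1 in both its populations. Each of these counts includes the alternatives that could not move the ratio. No direction was reversed. Of the alternative levels of named genes, 27 moved beyond their counting interval. No paired analysis was possible because each condition is 1 library and no result comes from a test.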
